A study of Mus musculus with 19 samples.

Results

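The 39 genes described here encode the main chaperones of the cytosol and of the mitochondrial matrix: heat shock factor 1, the HSP70 and HSP110 proteins with their J-domain and BAG partners, HSP90 with its co-chaperones, 3 small heat shock proteins, the 8 subunits of the TRiC/CCT chaperonin, and 4 mitochondrial chaperones. They were taken from the count table by gene symbol. All 39 symbols were found among the 24537 genes of the deposited count table, and all 39 passed the filter on low counts that left 12269 genes for testing. Poly(A) RNA was sequenced from hepatocytes that had been isolated by liver perfusion from 19 mice, with 1 library per mouse. All mice were male, wild type and of the C57BL/6J strain: 10 were young (5 months) and 9 were old (24 months). Mice were culled on 2 days that lay 23 days apart, the first with 5 young and 5 old mice and the second with 5 young and 4 old mice. Every library comes from a mouse of its own per the labels, so the p-values measure the spread between these mice. Mice are named below by the library numbers of the labels.

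Chaperones hold unfolded or partly folded proteins and use ATP to give them further chances to fold. HSP70 proteins take clients from J-domain partners (the HSP40 family) and are recharged by nucleotide exchange factors such as the HSP110 and BAG proteins; HSP90 and its co-chaperones act later, on kinases and steroid receptors, and the TRiC/CCT ring folds actin and tubulin. In the mitochondrial matrix, the HSP70 protein Hspa9 receives imported chains and the Hspd1/Hspe1 chamber folds them. When unfolded proteins build up, heat shock factor 1 binds heat shock elements, repeats of the unit NGAAN in alternating direction, and raises transcription of a subset of these genes, with Hspa1a and Hspa1b among the strongest responders.

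Promoter sequence was at hand for 31 of the 39 members in the RefSeq set for build GRCm38.p6, as windows of 300 bases (250 before the transcription start and 50 after it). The pattern TTCNNGAANNTTC, which spells 3 alternating units, was searched on both strands together with its reverse complement GAANNTTCNNGAA. It lay in the windows of 5 of the 31 members (16.1%), Hsph1, Dnajb6, Chordc1, Hspd1 and Hspe1, against 179 of all 27025 genes with a window (0.662%). A shorter pattern of 2 units, TTCNNGAA or GAANNTTC, which every longer match contains, lay in the windows of 16 of the 31 members (51.6%) and of 17% of all genes. Hspd1 and Hspe1 are neighbours on chromosome 1, read away from each other with 215 bases between them, so their match is one stretch counted for both. The first 280 bases of the window are printed for Hspe1, Dnajb6, Hsph1 and Chordc1, to show where the longer pattern lies, and for the inducible pair Hspa1a and Hspa1b, to show how alike their windows are. Capitals mark the 3-unit matches in the first 4 sequences and the 2-unit match in the last 2. A gene was counted when any of its windows matched. For Fkbp4, Cct2 and Cct5 no window lay at the start of the transcript counted here. Some matches lie after the start, as in Hsph1, whose 3-unit match begins 15 bases after it. A match describes letters only and shows no binding.
Hspe1: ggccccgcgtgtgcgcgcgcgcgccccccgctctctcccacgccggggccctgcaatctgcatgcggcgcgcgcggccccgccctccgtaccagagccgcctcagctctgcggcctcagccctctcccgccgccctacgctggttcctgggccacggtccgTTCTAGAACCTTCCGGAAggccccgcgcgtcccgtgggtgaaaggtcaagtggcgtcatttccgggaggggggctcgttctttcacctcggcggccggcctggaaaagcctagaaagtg
Dnajb6: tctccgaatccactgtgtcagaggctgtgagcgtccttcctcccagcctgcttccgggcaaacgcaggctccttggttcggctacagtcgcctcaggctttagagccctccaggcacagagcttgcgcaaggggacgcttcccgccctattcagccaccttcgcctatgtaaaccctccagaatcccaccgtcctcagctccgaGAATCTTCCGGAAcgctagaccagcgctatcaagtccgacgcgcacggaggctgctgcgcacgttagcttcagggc
Hsph1: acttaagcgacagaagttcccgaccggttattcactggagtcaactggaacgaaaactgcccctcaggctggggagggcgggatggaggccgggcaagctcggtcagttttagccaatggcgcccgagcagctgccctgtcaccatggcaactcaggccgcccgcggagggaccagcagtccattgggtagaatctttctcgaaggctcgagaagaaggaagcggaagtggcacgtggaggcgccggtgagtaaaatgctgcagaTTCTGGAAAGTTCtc
Chordc1: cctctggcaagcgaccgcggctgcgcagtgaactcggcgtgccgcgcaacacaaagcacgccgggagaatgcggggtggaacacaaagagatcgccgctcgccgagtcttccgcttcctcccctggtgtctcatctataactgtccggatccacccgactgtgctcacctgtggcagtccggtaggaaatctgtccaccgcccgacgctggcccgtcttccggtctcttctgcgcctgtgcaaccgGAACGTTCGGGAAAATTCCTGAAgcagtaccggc
Hspa1b: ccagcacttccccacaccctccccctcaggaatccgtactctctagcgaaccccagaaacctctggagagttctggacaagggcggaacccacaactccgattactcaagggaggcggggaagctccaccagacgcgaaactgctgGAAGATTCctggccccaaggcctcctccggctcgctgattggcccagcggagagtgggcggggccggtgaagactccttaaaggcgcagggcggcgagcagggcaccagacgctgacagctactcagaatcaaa
Hspa1a: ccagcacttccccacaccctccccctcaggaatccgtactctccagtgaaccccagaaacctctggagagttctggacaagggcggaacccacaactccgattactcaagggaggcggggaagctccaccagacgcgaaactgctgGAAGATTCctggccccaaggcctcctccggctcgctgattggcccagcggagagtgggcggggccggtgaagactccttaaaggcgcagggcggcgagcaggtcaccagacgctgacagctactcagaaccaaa
The Hspe1 window lies at chr1:55087898-55088177 on the plus strand, and its capitals begin 89 bases before the start site. Dnajb6 lies at chr5:29735648-29735927 (plus strand), Hsph1 at chr5:149636286-149636565 (minus strand) and Chordc1 at chr9:18292017-18292296 (plus strand). The windows of Hspa1b (chr17:34959209-34959488) and Hspa1a (chr17:34972127-34972406), both on the minus strand, were identical at 276 of 280 bases. Both hold GAAGATTC, beginning 104 bases before the start.

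Library totals, summed over the genes of the count table, lay between 17381439 and 20287628 counts. Levels are given as CPM (counts scaled to a common library size of 1000000). The hepatocyte markers made up 112838 to 174745 CPM in young and 129570 to 215886 in old mice, so the defining genes of the labelled cell type were abundant in every library; 4 of the 11 tested were called lower and 2 higher in old. Young mice 1184, 1186 and 1188 stood apart, at 112838, 114747 and 114389 CPM of hepatocyte markers where the other young mice had 155639 or more, and 1186 had 170 CPM of cholangiocyte markers, the most of all mice. Genes of other liver cells were low but not equal between ages: the 14 macrophage markers summed to 106 to 534 CPM in young and 68.6 to 3337 CPM in old mice, with 12 of 14 called higher in old; the 13 endothelial markers summed to 197 to 356 and 211 to 678 CPM, with 9 of 13 higher; and the stellate markers summed to 46.6 to 126 and 131 to 459 CPM, with 11 of 11 tested higher. Old mouse 1187 stood apart, with 3337 CPM of macrophage and 459 CPM of stellate markers where the next old mouse, 1242, had 823 and 234 CPM. Without 1187, 31 of the 39 members were called, 29 of them lower, beside 3014 called genes in all. No gene of these lists was at 0 in all libraries. Immediate early genes, which respond to handling and isolation of cells, summed to 362 to 1315 CPM in young and 661 to 1424 CPM in old mice, and 6 of 17 were called higher. Acute phase genes stood at 62950, 82960 and 48682 CPM in young mice 1184, 1186 and 1188, at 13591 to 16620 CPM in the other young mice and at 18515 to 51168 CPM in old mice, with 1189 (51168) and 1236 (45912) highest. In bulk libraries, fewer cells of a type and less RNA per cell cannot be told apart.

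Most of the chaperone genes were lower in hepatocytes of old mice. By edgeR's quasi-likelihood test, fitted with a term for cull day and adjusted by Benjamini-Hochberg over all 12269 genes, 30 of the 39 members fell with age and 2 rose (Hspa2 and Cryab) at an adjusted p under 0.05, while 7 did not pass (Hsf1, Dnajb2, Bag1, Bag2, Bag3, Hspb1 and Hspb8). Among all genes tested, 30.9% were called, 14.5% lower and 16.3% higher. The median member's log2 fold change of old over young was -0.37, the median of all genes was -0.0034, and 36 of 39 members lay below 0. Many members are abundant, and the background differs with level: of the 2393 genes with a mean of at least 50 CPM, 27.6% were lower and 5.52% higher, with a median of -0.12. Of the 25 members in that range, 22 were lower and 0 higher, with a median of -0.35. A score of other liver cell markers, their mean log2 CPM in each mouse, was added as a covariate. With it, 20 members were lower and 0 higher in edgeR's test, beside 6.73% of all genes lower, and the median member was at -0.35. With the early response score, 28 were lower and 0 higher, beside 9.28% of all genes lower.

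By role, the medians of the members spread widely, which is given as a description. Both inducible HSP70 genes were lower (median log2 fold change -1.76), as were 4 of 5 other HSP70 and HSP110 genes (-0.54), 5 of 6 cytosolic HSP40 genes (-0.34), all 6 genes of HSP90 and its co-chaperones (-0.47), all 8 TRiC/CCT subunits (-0.21) and all 4 mitochondrial chaperones (-0.42). Of the 4 genes of the BAG family and St13, 1 was lower (median -0.14). None of the 3 small heat shock protein genes was called lower and 1 was higher. The whole set spanned -1.89 to 0.58.

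**Figure D1:**
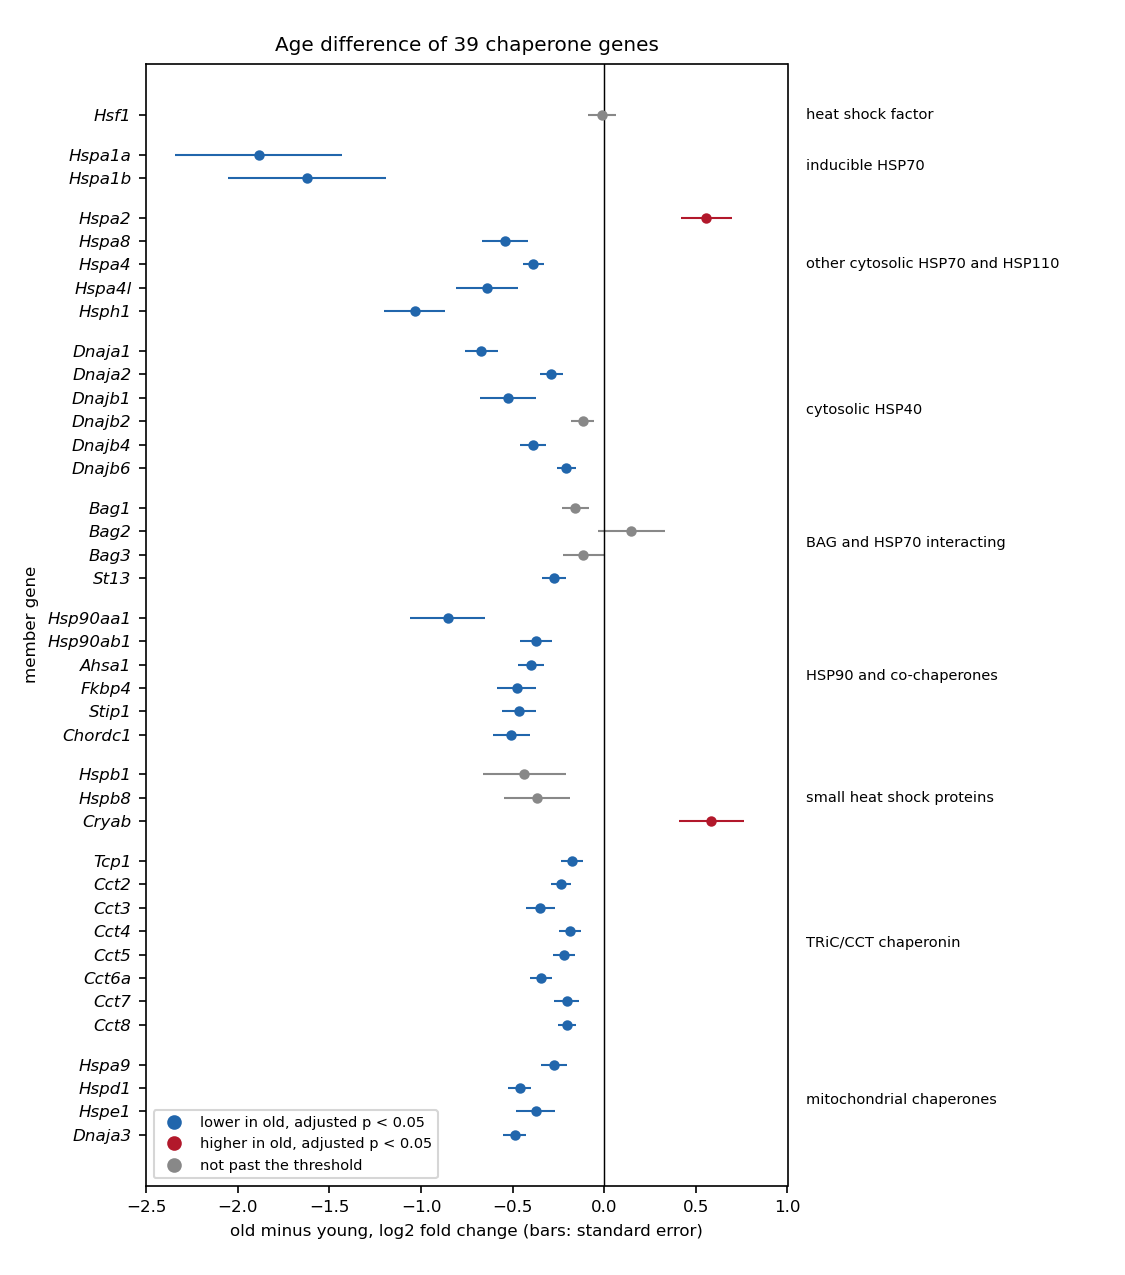
Fitted log2 fold change of old over young hepatocytes for each of the 39 chaperone genes (x axis, with bars for the standard error), grouped by role (labels at the right). Of the 39 points, 30 are blue (lower in old, adjusted p under 0.05), 2 are red (higher, Hspa2 and Cryab) and 7 are grey; the inducible pair Hspa1a and Hspa1b lies farthest left at -1.89 and -1.62, with the widest bars.

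For 5 members every old mouse lay below every young mouse: Hspa4, Dnaja1, Cct6a, Hspd1 and Dnaja3. Such a separation was found for 0.725% of all genes tested in this direction and for 0.994% in the other, which held 0 members. These 5 genes come from 4 of the roles and are not those with the widest fold changes.

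Hsf1 encodes the transcription factor that drives the heat shock response. Its level was 8.64 CPM in the lowest, 10.8 in the median and 11.6 in the highest young mouse, and 8.76, 10.7 and 12.4 CPM in old mice. The ranges overlapped widely, with 3 of 9 old mice above every young mouse, and the log2 fold change was -0.01 (SE 0.0771, edgeR adjusted p = 0.926). Its sign turned under other settings (from -0.05 to 0.08 over those tried), so no direction is given for it.

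Hspa1a and Hspa1b encode the stress-inducible HSP70 and are nearly silent in unstressed tissue. Hspa1b stood at 10.2 CPM in the lowest, 14.2 in the median and 102 in the highest young mouse, against 5.12, 6.32 and 15.0 CPM in old mice. Young mice 1243 (102 CPM) and 1235 (49.7 CPM), both of the second cull day, were far above the other young mice, which reached 18.3 CPM; among old mice, 8 of 9 lay below every young mouse and 1189 was the exception. Over all mice the log2 fold change of Hspa1b was -1.62 (SE 0.432, edgeR adjusted p = 0.00953). Hspa1a had 1.71, 2.44 and 19.97 CPM in young and 0.564, 0.972 and 1.88 CPM in old mice, on 11 to 366 counts per library, with 8 of 9 old mice again below every young mouse. The fitted difference was -1.89 on the log2 scale (SE 0.456, edgeR adjusted p = 0.00558). The summed level of the pair was 30.9 ± 34.9 CPM (SD, n = 10) in young and 8.42 ± 3.38 CPM (SD, n = 9) in old mice.

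The split between the inducible genes is uncertain. They lie 10120 bases apart on chromosome 17 (Hspa1b at chr17:34956429-34959238, Hspa1a at chr17:34969359-34972156, mm10), and 49.9% of the 100-base windows of the Hspa1b transcript are also present in Hspa1a, while 47.1% of those of Hspa1a are present in Hspa1b. Without mice 1235 and 1243, left out after their values were seen, the log2 fold change was -0.90 for Hspa1b (edgeR adjusted p = 0.00406) and -1.09 for Hspa1a (0.00878), and without 1243 alone Hspa1b was at -1.24 (0.0066). With the score of other liver cell markers as a covariate, neither passed the threshold in edgeR's test (Hspa1b -1.53, adjusted p = 0.0614, and Hspa1a -1.80, adjusted p = 0.0551). With the early response score the differences were wider (Hspa1b -2.32, adjusted p = 0.00259, and Hspa1a -2.51, adjusted p = 0.00265).

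Of the other cytosolic HSP70 and HSP110 genes, Hspa4, Hsph1, Hspa8 and Hspa4l fell. Hspa8, the constitutive HSP70 that clothes many nascent chains, had 662, 919 and 1489.9 CPM in the lowest, median and highest young mouse and 530, 687 and 825 CPM in old mice; 8 of 10 young mice were above every old mouse. The difference was -0.54 on the log2 scale (SE 0.127, edgeR adjusted p = 0.00456), and its 2 highest young mice were 1235 and 1243. Hsph1, an HSP110 that exchanges the nucleotide of HSP70, stood at 29.6, 46.3 and 94.6 CPM in young against 18.7, 23.9 and 33.9 CPM in old mice. All old mice but 1236 were below every young mouse, and the log2 fold change was -1.04 (SE 0.166, edgeR adjusted p = 0.000301).

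Hspa4, a second HSP110, varied little among mice, with 118, 129 and 145 CPM in young and 89.7, 99.9 and 115 CPM in old mice and no overlap. On the log2 scale it differed by -0.39 (SE 0.059, edgeR adjusted p = 0.000219). Hspa4l, the third HSP110, ranged from 12.5 to 31.2 CPM (median 20.9) in young and from 8.97 to 16.6 CPM (median 14.2) in old mice, a log2 fold change of -0.64; without young mice 1184, 1186 and 1188 it was -0.44 (edgeR adjusted p = 0.0704). Hspa2, best known as the testis HSP70, went the other way from a low level: 1.57, 2.58 and 3.57 CPM in young and 2.86, 3.55 and 4.71 CPM in old mice, with 4 of 9 old mice above every young mouse. The log2 fold change of Hspa2 was 0.56, and with a score for other liver cells or for early response genes as a covariate it was 0.43 (edgeR adjusted p = 0.0904) and 0.48 (0.0601).

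HSP40 proteins hand clients to HSP70 and start its ATP cycle. Dnaja1, a farnesylated HSP40 of the cytosol, had 205, 259 and 331 CPM in young mice and 125, 163 and 190 CPM in old mice, so the ages did not overlap. The log2 fold change was -0.67 (SE 0.0886, edgeR adjusted p = 7.30e-05). Dnaja2, its close relative, stood at 74.6, 84.7 and 97.6 CPM in young against 60.1, 71.4 and 75.4 CPM in old mice; 8 of 9 old mice were below every young mouse. For Dnaja2 the log2 fold change was -0.29 (SE 0.0627, edgeR adjusted p = 0.00276).

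Among the B class, Dnajb4 had 27.9, 35.3 and 42.6 CPM in young and 24.2, 26.1 and 29.6 CPM in old mice (log2 fold change -0.39, SE 0.0734, edgeR adjusted p = 0.00108). Dnajb6, which keeps aggregation-prone proteins soluble and whose window holds a 3-unit match, ranged from 45.5 to 56.3 CPM (median 51.9) in young and from 40.1 to 47.9 CPM (median 44.9) in old mice, a log2 fold change of -0.21; it was -0.18 with the early response score (edgeR adjusted p = 0.0631) and -0.19 with the score of other liver cells (0.0712). Dnajb1, the heat-inducible partner of Hspa1a, stood at 19.7, 22.3 and 53.3 CPM in young and 15.1, 19.1 and 20.9 CPM in old mice. As for Hspa1b, mice 1243 and 1235 held its highest levels, 53.3 and 36.9 CPM, and 7 of 9 old mice lay below every young mouse. The log2 fold change of Dnajb1 was -0.53 (SE 0.155, edgeR adjusted p = 0.0161) and -0.31 without those 2 mice (adjusted p = 0.0218); with the score of other liver cells it was -0.54 (adjusted p = 0.0668). Dnajb2 did not pass (-0.12, adjusted p = 0.16).

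BAG proteins release clients from HSP70. St13, which slows that release, fell by 0.28 on the log2 scale, from 139 to 183 CPM (median 154) in young to 111 to 144 CPM (median 131) in old mice. None of the 3 BAG genes passed: the log2 fold change was -0.16 for Bag1 (edgeR adjusted p = 0.108), 0.15 for Bag2 (0.565) and -0.11 for Bag3 (0.467). Bag1 passed without old mouse 1183 (-0.21, edgeR adjusted p = 0.0224) and without young mice 1184, 1186 and 1188 (-0.25, adjusted p = 0.0288), and Bag2, at 1.23 to 4.15 CPM in young mice, had -0.04 without those 3. Bag3, which routes clients to autophagy and is a textbook target of heat shock factor 1, ranged from 27.9 to 51.3 CPM in young and from 26.1 to 44.1 CPM in old mice.

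Both cytosolic HSP90 genes were lower in old mice. Hsp90ab1, the constitutive form, had 925, 1170.2 and 1528 CPM in the lowest, median and highest young mouse and 789, 901 and 1031 CPM in old mice; 7 of 9 old mice were below every young mouse. Its log2 fold change was -0.37 (SE 0.0881, edgeR adjusted p = 0.00494). Hsp90aa1, the inducible form, spanned a wider range among young mice, at 129.7, 257 and 423 CPM, than among old mice, at 107, 129.8 and 171 CPM. The 3 lowest young mice, 1180, 1182 and 1244 (130 to 138 CPM), fell inside the range of the old mice and the other 7 lay above all of them. Its log2 fold change was -0.86 (SE 0.202, edgeR adjusted p = 0.00485), and without young mice 1184, 1186 and 1188, which had 423, 260 and 310 CPM, it was -0.45 (adjusted p = 0.054).

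The 4 HSP90 co-chaperones fell too. Ahsa1, which speeds the HSP90 ATPase, stood at 69.9, 93.5 and 106 CPM in young and 62.4, 66.8 and 82.4 CPM in old mice (log2 fold change -0.40, SE 0.0714, edgeR adjusted p = 0.000707). Stip1, the adaptor between HSP70 and HSP90, had 58.0, 79.5 and 114 CPM against 49.4, 56.1 and 68.3 CPM (log2 fold change -0.47, SE 0.0928, edgeR adjusted p = 0.00159). Both genes overlapped between ages, with 7 of 10 young mice above every old mouse. Chordc1, whose promoter holds 3 matches to the longer pattern, went from 21.9, 31.7 and 40.3 CPM to 17.1, 21.3 and 25.9 CPM (log2 fold change -0.51, SE 0.1, edgeR adjusted p = 0.00151). Fkbp4, an immunophilin of steroid receptor complexes, went from 139, 174 and 238 CPM to 84.6, 130.2 and 151 CPM (log2 fold change -0.48, SE 0.106, edgeR adjusted p = 0.00314).

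**Figure D2:**
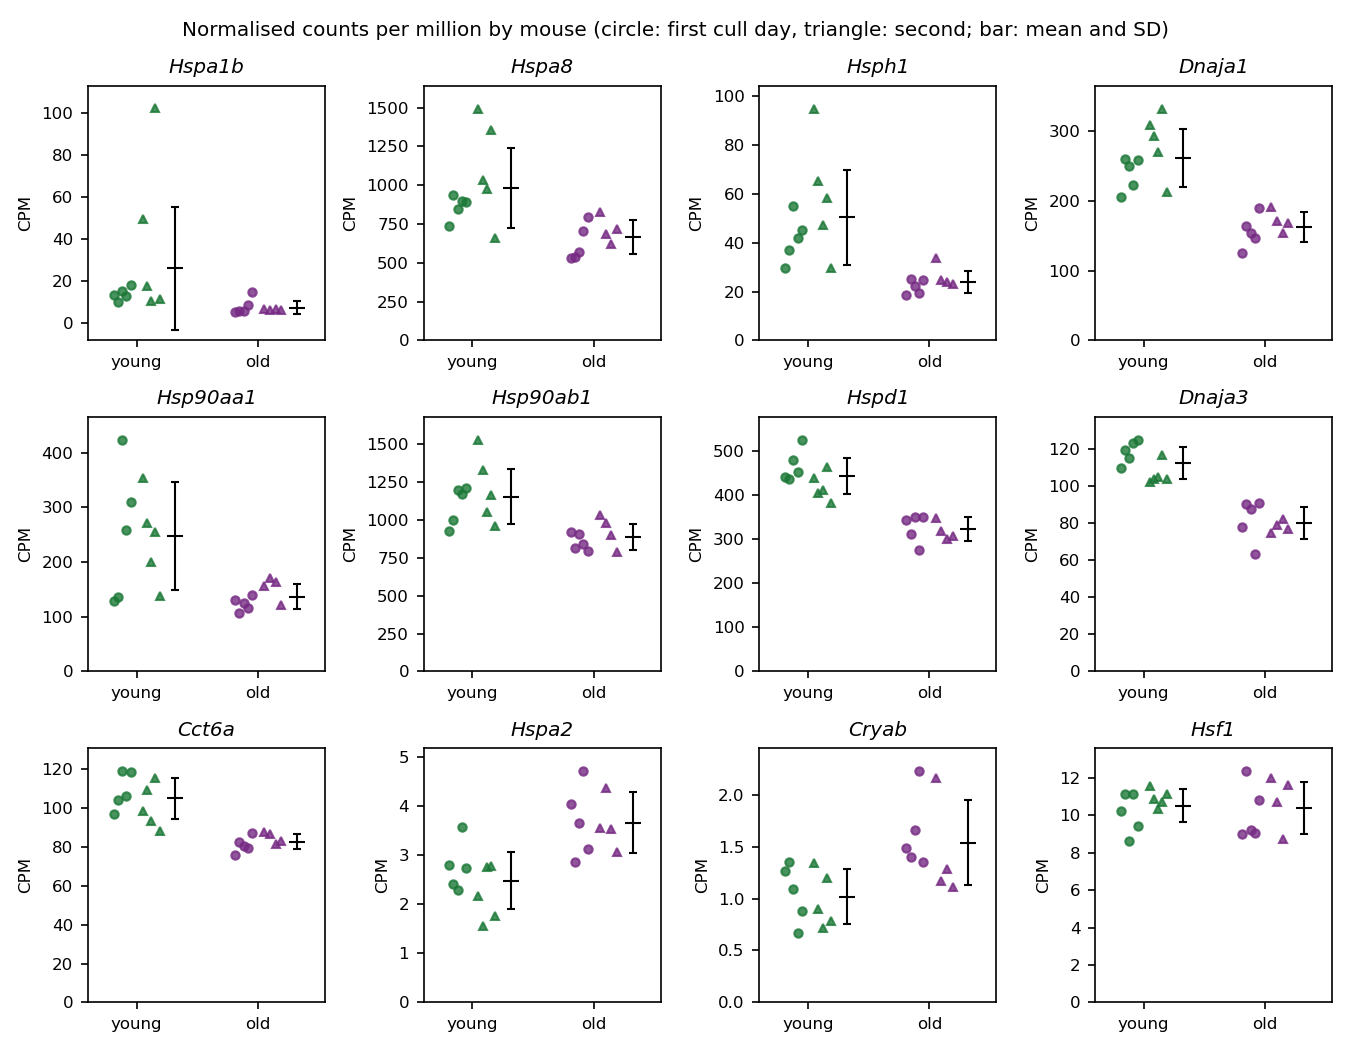
Normalised CPM (y axis, linear) of 12 members in each mouse, young in green and old in purple, circles for the first and triangles for the second cull day, with a bar for the mean and SD of each age. Dnaja1, Hspd1, Dnaja3 and Cct6a show no overlap between ages, Hspa1b shows the young mice at 102 and 49.7 CPM, Hspa2 and Cryab are higher in old mice, and the ranges of Hsf1 overlap, with 3 of 9 old mice above every young mouse.

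The small heat shock proteins hold unfolded chains without using ATP, and the 3 measured here did not move as one. Hspb1 ranged from 11.5 to 38.3 CPM in young and from 13.4 to 25.7 CPM in old mice (log2 fold change -0.44, edgeR adjusted p = 0.148). Hspb8 ranged from 111 to 279.9 CPM in young and from 109 to 241 CPM in old mice (-0.37, adjusted p = 0.128). Its 3 highest young mice were 1184, 1186 and 1188 at 265, 279.9 and 263 CPM, the next being 1243 at 179 CPM; without those 3 the log2 fold change was -0.02 for Hspb8 (edgeR adjusted p = 0.939) and -0.10 for Hspb1 (0.789). These 3 mice also had high acute phase genes, as did old mouse 1189, which had the highest Hspb8 of the old mice. Old mouse 1236 had 45912 CPM of acute phase genes and 134 CPM of Hspb8. The part of the acute phase genes in the result was not tested. With the early response score as a covariate, Hspb1 (-0.84, edgeR adjusted p = 0.0129) and Hspb8 (-0.71, adjusted p = 0.00768) passed, and Hspb8 also passed without old mouse 1189 (-0.49, adjusted p = 0.0366).

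Cryab, alpha B crystallin of lens and muscle, was near the lower limit of what was measured, with 0.669, 0.994 and 1.35 CPM in young and 1.11, 1.40 and 2.23 CPM in old mice, on 12.5 to 51 counts per library. The log2 fold change of Cryab was 0.58, and 6 of 9 old mice were above every young mouse. The edgeR adjusted p was 0.0199. It did not pass without old mouse 1236 (0.48, adjusted p = 0.0501), with the score of other liver cells (0.48, 0.146), with the early response score (0.59, 0.0849) or without young mice 1184, 1186 and 1188 (0.45, 0.104) in edgeR's test. Cryab shares 1030 bases with Hspb2 on the other strand, a gene at 0.101 CPM.

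The 8 subunits of TRiC/CCT, each present in both rings of the complex, all fell, with log2 fold changes from -0.35 to -0.17. Cct6a did not overlap between ages, at 88.4, 105 and 119 CPM in young and 75.7, 82.5 and 87.8 CPM in old mice (log2 fold change -0.34, SE 0.0612, edgeR adjusted p = 0.000678). For Cct3 the log2 fold change was -0.35 (72.6 to 119 CPM in young and 70.1 to 89.9 in old mice), and for Cct2 it was -0.24 (83.4 to 99.2 and 68.5 to 88.8 CPM). Cct5 had -0.22 (119 to 154 and 99.2 to 130 CPM), Cct7 -0.21 (72.7 to 96.1 and 64.1 to 82.6 CPM) and Cct8 -0.20 (108 to 133 and 91.8 to 111 CPM). Cct4 had -0.19 (77.9 to 111 and 66.3 to 94.8 CPM) and Tcp1, which is subunit 1, -0.17 (181 to 239.9 and 159.8 to 205 CPM). In these 7 the ages overlapped in part.

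Calls of several TRiC/CCT subunits depended on single mice or on the setting. Tcp1 did not pass without 1182 (edgeR adjusted p = 0.0624), 1187 (0.0631), 1238 (0.0795), 1240 (0.0578) or 1243 (0.0557), at log2 fold changes of -0.17 to -0.15, and Cct7 did not pass without 1184 (0.0524), 1188 (0.0521) or 1238 (0.0573), at -0.19 to -0.18. With the score of other liver cells, Tcp1 (-0.08, edgeR adjusted p = 0.472), Cct4 (-0.15, 0.178), Cct5 (-0.21, 0.0595) and Cct8 (-0.19, 0.0635) did not pass. Without young mice 1184, 1186 and 1188, Cct7 (-0.12, edgeR adjusted p = 0.209), Cct4 (-0.16, 0.0757) and Cct5 (-0.17, 0.0541) did not pass, and with the early response score Tcp1 (-0.12, 0.252) and Cct4 (-0.17, 0.113) did not. Scaling to library totals ended the calls of Tcp1 (-0.13, edgeR adjusted p = 0.139), Cct4 (-0.14, 0.12) and Cct7 (-0.16, 0.0964), and leaving out the cull day term those of Tcp1 (-0.18, 0.0504) and Cct4 (-0.19, 0.0684). Tcp1 also failed with a filter of 1 CPM (-0.16, 0.0525), and without mice 1235 and 1243 Tcp1 (-0.17, 0.0523) and Cct7 (-0.18, 0.0731) did not pass. On the genome, introns included, Tcp1 shares 1109 bases with Acat3 (325 CPM), Cct8 shares 189 bases with Usp16 (30.3 CPM) and Cct7 shares part of its length with Pradc1 (5.09 CPM), each on the other strand. Since the strand setting of the counting is not given in the sources used here, reads in the shared bases cannot be assigned.

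All 4 mitochondrial chaperones were lower. Old mouse 1187, which had the most macrophage and stellate markers, was the lowest of all mice in each of them; without it the log2 fold changes were -0.45 for Dnaja3, -0.44 for Hspd1, -0.35 for Hspe1 and -0.24 for Hspa9, and all 4 still passed in edgeR's test (largest adjusted p = 0.0228). Dnaja3, the HSP40 of the matrix, had 102, 112 and 125 CPM in young and 63.1, 78.9 and 90.5 CPM in old mice, with no overlap, and the smallest p-value of all members (log2 fold change -0.49, SE 0.0634, edgeR adjusted p = 6.04e-05). Hspd1, the HSP60 chamber, had 382, 439 and 524 CPM against 274, 318 and 349.7 CPM, again with no overlap (log2 fold change -0.46, SE 0.0638, edgeR adjusted p = 9.34e-05). Hspe1, the HSP10 lid that shares its start region with Hspd1, ranged from 114 to 199 CPM (median 151) in young and from 91.2 to 157 CPM (median 117) in old mice. This was a log2 fold change of -0.38, and without young mice 1184, 1186 and 1188 it was -0.29 (edgeR adjusted p = 0.0824); with the score of other liver cells it was -0.34 (adjusted p = 0.0874). Hspa9, the HSP70 of the import motor, had 446, 498 and 530 CPM in young and 324, 405 and 525 CPM in old mice; 8 of 9 old mice were below every young mouse, and old mouse 1189 was the exception at 525 CPM. On the log2 scale the difference was -0.28, and -0.14 with the score of other liver cells (edgeR adjusted p = 0.242) and -0.22 with the early response score (0.0925).

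The age difference was seen on both cull days, with fewer calls in the smaller groups. On the first day alone 7 members were lower at an edgeR adjusted p under 0.05 (Hspa4, Hsph1, Dnaja1, Stip1, Cct6a, Hspd1 and Dnaja3) and 0 higher, where 1.79% of all genes were called lower and 1.88% higher, and the median member stood at -0.36. On the second day alone 16 were lower and 1 higher (Hspa2), where 7.15% of all genes were lower and 12.2% higher, and the median member stood at -0.30. In edgeR's test of the interaction of age with cull day, 0 members passed, as did 0 of all 12269 genes (0%). At an unadjusted p under 0.05 there was 1 member, Hspa1b (p = 0.0249, adjusted p = 0.708), against 799 of all genes (6.51%). Its log2 fold change was -0.80 on the first and -2.57 on the second day, the day of mice 1235 and 1243. Between the days themselves, 3 members were called, all higher on the second day: Dnajb2 (log2 difference 0.22, edgeR adjusted p = 0.0304), Bag1 (0.25, 0.0369) and Cct4 (0.22, 0.0242). Of all genes, 12.3% were called between the days.

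Within an age, mice differed in the level of the whole set. For each mouse the deviation of every member from its mean over the 19 mice was taken on the log2 CPM scale. The median member deviated by 0.31 in young mouse 1243, by 0.22 in 1235, by 0.20 in 1184, 1188 and 1237, by 0.17 in 1186, by 0.11 in 1239 and by 0.10 in 1182. Young mice 1244 and 1180 were close to the overall mean, at -0.01 and -0.03. All old mice were below it, from -0.28 in 1181 and -0.27 in 1187 to -0.01 in 1236, so the lowest young and the highest old mice overlapped. In mice 1235, 1237 and 1243, 36 of the 39 members were above their mean, and in old mouse 1187 2 were.

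**Figure D3:**
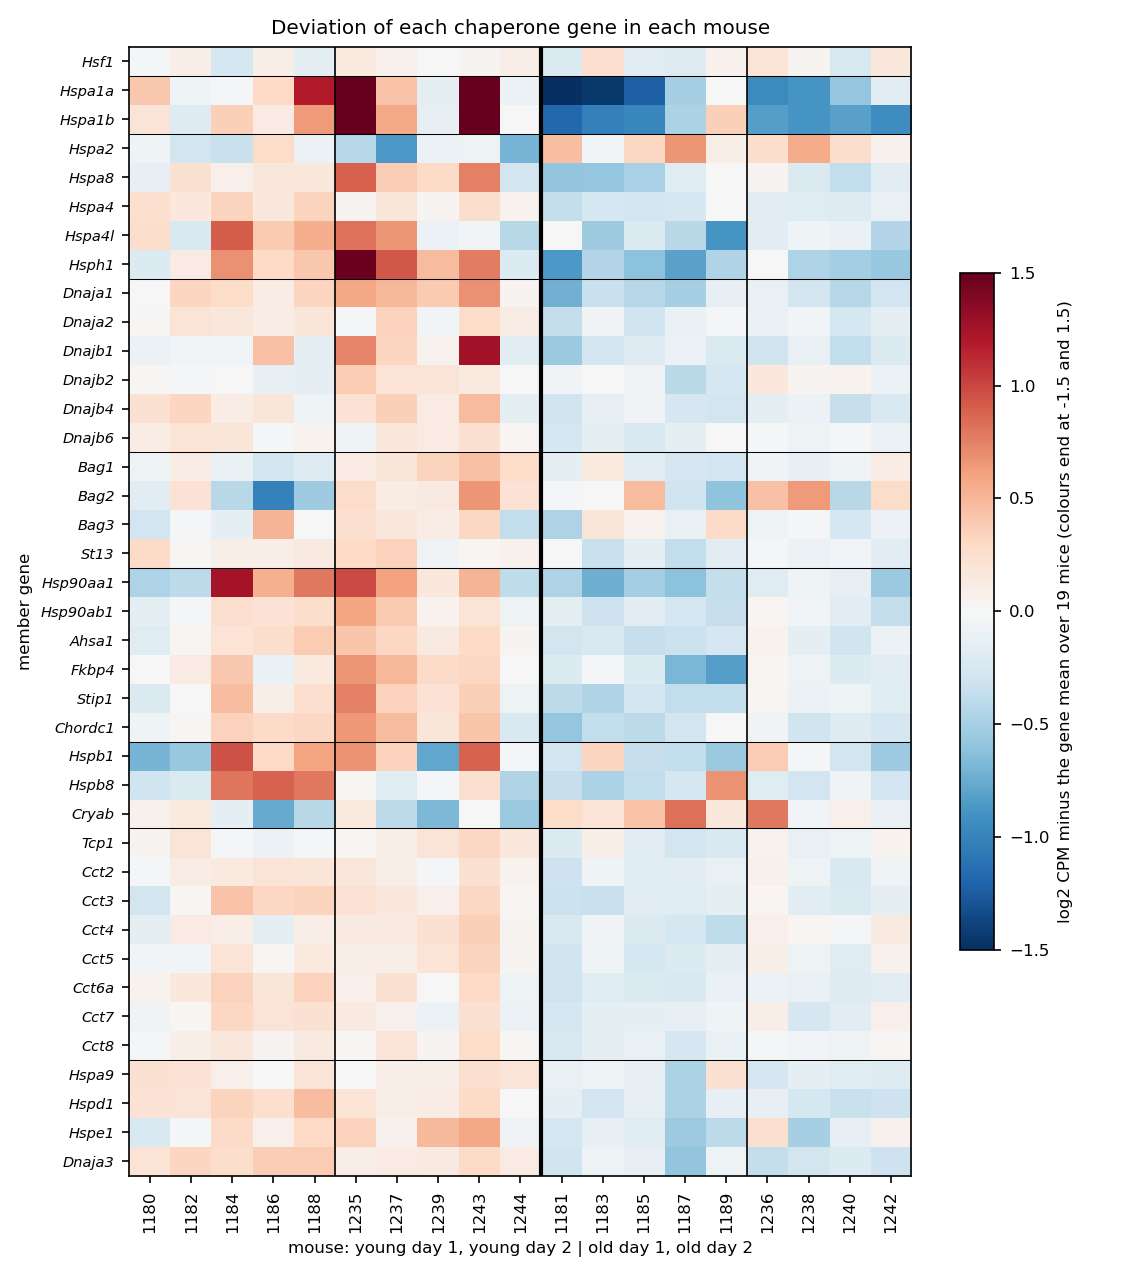
Deviation of log2 CPM from the gene's mean over 19 mice (colour, red above and blue below, ending at 1.5 either way) for 39 members in rows and mice in columns, ordered by age and cull day. The young columns are mostly red and the old columns mostly blue; the median deviation runs from 0.31 in young mouse 1243 to -0.28 in old mouse 1181, and Hspa1a and Hspa1b go past the end of the colour scale in single mice.

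Among young mice the widest spread was in Hspa1a and Hspa1b. The SD of log2 CPM among young mice was 1.13 for Hspa1a, 1.08 for Hspa1b, 0.65 for Hspb1, 0.61 for Hsp90aa1, 0.52 for Hsph1 and 0.50 for Hspb8, and among old mice it was 0.55, 0.46, 0.34, 0.23, 0.25 and 0.34 for the same genes. Among old mice Bag2, at 0.43, came next after the inducible pair. Relations among mice were computed between Hspa1b and 6 other members on the log2 CPM scale, with 100000 permutations and p-values adjusted over the 6. Over all 19 mice Pearson's r was 0.964 with Hspa1a (permutation adjusted p = 2e-05; Spearman's rho 0.960, 6e-05), and how reads matching both genes were counted is not given in the sources used here. With Dnajb1 r was 0.894 (2e-05; rho 0.705, 0.00127), with Hspa8 0.865 (2e-05; rho 0.804, 9e-05), with Hsph1 0.781 (0.00018; rho 0.809, 0.00014), with Hsp90aa1 0.655 (0.00254; rho 0.732, 0.00078) and with Bag3 0.477 (0.0386; rho 0.391, 0.0983). The smallest unadjusted p that these permutations can give is 1e-05. Mice 1235 and 1243 lay farthest from the median of Hspa1b, and without them r was 0.892 with Hspa1a, 0.622 with Dnajb1, 0.751 with Hspa8, 0.742 with Hsph1, 0.655 with Hsp90aa1 and 0.297 with Bag3.

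Since the ages differ in these genes, the pooled values hold the age difference as well. Within the 10 young mice r with Hspa1b was 0.887 for Dnajb1 (permutation adjusted p = 0.0134) and 0.797 for Hspa8 (0.0218), and without mice 1235 and 1243 it was 0.107 and 0.188, so both relations within young mice rested on those mice. For Hsph1 r was 0.639 in young (permutation adjusted p = 0.0783) and 0.115 in old mice, and for Hsp90aa1 0.435 and 0.0900. These too moved with the mice farthest out in Hspa1b: without 1187 and 1189, r in old mice was 0.738 for Hsph1 and 0.644 for Hsp90aa1, and without 1235 and 1243, r in young mice was 0.540 and 0.681. Within the 9 old mice r was 0.726 for Hspa1a (exact permutation test, adjusted p = 0.0450), 0.384 for Dnajb1 and 0.635 for Hspa8, the last 2 with adjusted p of 0.407 and 0.120, and 0.681, 0.538 and 0.761 without 1187 and 1189. Within the first cull day r was 0.523 for Dnajb1, 0.876 for Hspa8, 0.743 for Hsph1 and 0.679 for Hsp90aa1, and within the second it was 0.976, 0.880, 0.804 and 0.781. On deviations from the mean of each age and cull day, over 19 mice, r was 0.799 for Dnajb1 (permutation adjusted p = 0.00044), 0.758 for Hspa8 (0.00044), 0.513 for Hsph1 (0.0427), 0.454 for Hsp90aa1 (0.0584) and 0.444 for Bag3 (0.0584). Without the 2 mice farthest out on that scale, 1239 and 1243, these were 0.587, 0.825, 0.644, 0.552 and 0.482. Mouse 1235 was kept in that check, so it does not show how far these relations rest on 1235 and 1243 together. The permutations of these deviations ran over all 19 mice rather than within groups, so their p-values are approximate.

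**Figure D4:**
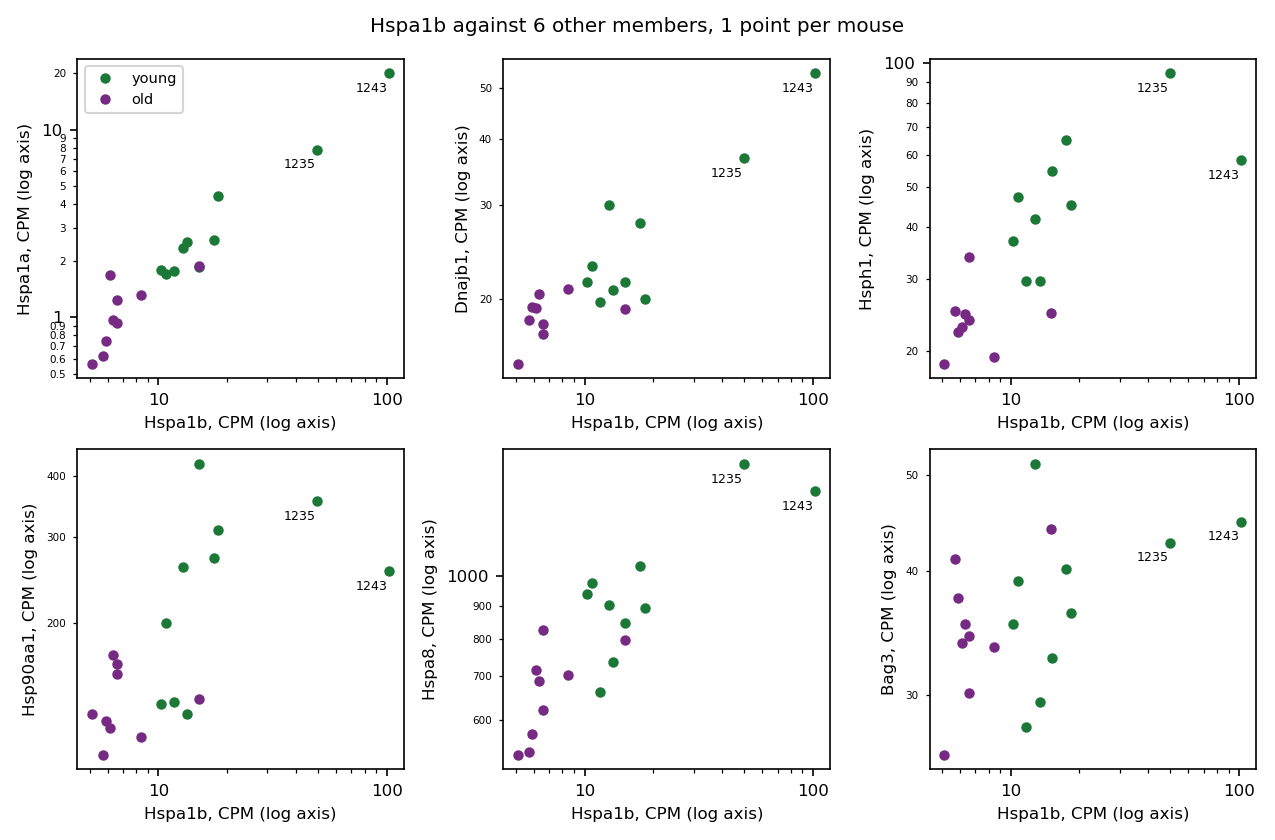
Hspa1b (x axis, CPM, log scale) against Hspa1a, Dnajb1, Hsph1, Hsp90aa1, Hspa8 and Bag3 (y axes, CPM, log scale), 1 point per mouse, young in green and old in purple, with mice 1235 and 1243 marked. These mice lie at the right end at 49.7 and 102 CPM; r over 19 mice runs from 0.964 for Hspa1a to 0.477 for Bag3.

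Per length of transcript, on the RPKM scale (CPM divided by the length in kilobases), Hspa8 and Hsp90ab1 led the set in young mice at 469.7 ± 123 and 463 ± 73.3 (SD, n = 10), and did not differ beyond their spread. Hspe1 (201 ± 35.8), Hspd1 (191 ± 17.4) and Hspa9 (163 ± 10.5), the mitochondrial genes, came next; Hspe1 and Hspd1 did not differ beyond their spread, while Hspa9 lay below Hspd1 by more than the SD of either. In old mice Hsp90ab1 stood at 356 ± 33.6, Hspa8 at 318 ± 51.7, Hspe1 at 154 ± 27.8, Hspd1 at 139 ± 11.5 and Hspa9 at 135 ± 17.5 RPKM (SD, n = 9), and these 5 were again the most abundant, with neighbours in each of the pairs Hsp90ab1 and Hspa8, Hspe1 and Hspd1, and Hspd1 and Hspa9 within their spread. At the other end were Hspa1a (1.67 ± 2.04 in young mice), Bag2 (1.45 ± 0.463), Hspa2 (0.969 ± 0.225) and Cryab (0.918 ± 0.236). The mean of Hspa1a is lifted by mice 1243 and 1235.

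Further chaperone genes of the same pathways were counted in the same test. Of 69 such genes 62 were tested, 9 were lower and 3 higher in old mice, where 14.5% of all genes tested were lower and 16.3% higher, so the share lower was at the background. Their median log2 fold change was -0.09; the difference from the 39 members was not tested. Among other HSP90 co-chaperones 3 of 15 were lower, and those with the smallest p were Cdc37l1, a relative of the kinase adaptor Cdc37 (31.9 ± 1.82 CPM in 10 young and 24.2 ± 3.13 in 9 old mice, log2 fold change -0.40, edgeR adjusted p = 0.000535), and Tomm70a, the mitochondrial import receptor that binds both HSP70 and HSP90 (117 ± 10.02 and 94.0 ± 8.52 CPM, -0.32, 0.00174). Among 16 other mitochondrial chaperones and proteases 3 were lower, among them the matrix protease Lonp1 (154.7 ± 13.2 and 129 ± 12.4 CPM, -0.26, edgeR adjusted p = 0.00816) and Grpel1, the nucleotide exchange factor of Hspa9 (119 ± 18.3 and 98.5 ± 15.6 CPM, -0.26, 0.0223). Of 21 other genes of the heat shock factor and HSP70 system, 3 were lower and 2 higher, and the smallest p-values were those of the J-domain genes Dnajc21 (-0.35, edgeR adjusted p = 0.00113) and Dnajc5 (-0.25, 0.00618). Of 8 genes for prefoldin and helpers of TRiC/CCT, 0 were lower and 1 was higher (Pdcl3, 0.14, edgeR adjusted p = 0.0429), and both other small heat shock protein genes with enough counts did not pass.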

How the data were processed

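A single matrix of estimated counts, with genes in rows and the 19 libraries in columns, was deposited by the authors. HOMER wrote it for mm10, per the file headers, counting reads in exons and condensing transcripts to genes, without normalization; STAR and HOMER are named in the submitters' processing notes, and versions, multiple-match handling and the strand setting are not given in the sources used here. The counts come in steps of 0.5 (29.2% were not whole) and were rounded. Genes were tested with edgeR 4.0.16 in R 4.3.3 (TMM scaling, filterByExpr with a minimum count of 10, cull day as a covariate, quasi-likelihood test, Benjamini-Hochberg adjustment over 12269 genes, threshold 0.05); the procedure was first tested on simulated data. On simulated data, edgeR's test recovered 50.8% of true log2 differences of 0.5, 87.5% of those of 1 and 97.0% of those of 2. Of the calls on simulated data 1.91% were false, and no cull day effect was simulated. CPM are TMM-scaled and log2 CPM use a prior count of 2. RPKM divide CPM by the gene length in the deposited table, whose unit is bases.

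Library totals, summed over genes, were 17381439 to 20287628 counts, and every column was mapped to a mouse by its library number. Alternatives were DESeq2 1.42.0 and its size factors, limma 3.58.1 with voom and sample weights, library totals, other filters and no cull day term. Further ones were single days, left-out mice, and marker scores of other liver cells (40 genes) or early response genes (17 genes). Each score was the mean log2 CPM of its genes in each mouse. The members and gene lists were chosen with earlier results of these data known. All members are accounted for; those past the threshold and a few fixed by name get values by mouse, the 12 with the smallest p get full statistics, and of the other chaperone lists the 2 genes with the smallest p are named. Relations use log2 CPM and permutation tests (two-sided).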

Additional observations from a re-analysis of the deposited data

Results flagged for a closer look

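In 6 of 78 groups (39 genes in each of 2 ages), the highest mouse stood apart from the next by Dixon's test. Its gap was over the 95% critical value, 0.466 of the range for 10 mice and 0.493 for 9. Chance flags about 1 in 20 groups where values are normally distributed, which was not checked for these CPM. Groups of related genes, such as Hspa1a and Hspa1b, are not independent. Young mouse 1243 had 19.97 CPM of Hspa1a (next mouse 7.82), 102 CPM of Hspa1b (next 49.7) and 53.3 CPM of Dnajb1 (next 36.9). Old mouse 1189 had 15.0 CPM of Hspa1b (next 8.42) and 241 CPM of Hspb8 (next 146). Old mouse 1236 had 33.9 CPM of Hsph1 (next 25.0).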

How the results depend on the processing

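Against 3785 genes called by age over all mice, 450 were called on the first cull day alone, 2389 on the second, 1700 with the score of other liver cells and 2057 with the early response score as a covariate. The members called, 32 in the full comparison, were 7, 17, 20 and 28 in the same order; those lower in old, 30 in the full comparison, were 7, 16, 20 and 28. The first 2 settings have fewer mice; for the scores the cause was not tested. Bag2, which did not pass, reversed to -0.0045 on the second day and to -0.042 without mice 1184, 1186 and 1188. Hsf1, near 0 throughout, reversed to 0.033 with library totals, 0.0044 with a filter of 1 CPM and 0.077 with the score of other liver cells. Leaving out each mouse in turn gave -0.054 to 0.027 for Hsf1, 3014 to 3949 genes called, 30 to 33 members called, 28 to 31 members lower and a median member of -0.40 to -0.31. DESeq2, its size factors in edgeR and no low-count filter each called the same 32 members. A filter of 1 CPM called 31, voom 33, no cull day term 30 and library totals 29. Members lower were 30 with DESeq2 (17.2% of all genes lower), 30 with its size factors (15.7%) and 30 with no low-count filter (11.6%). A filter of 1 CPM gave 29 lower (13.5%), voom 31 (15.7%), no cull day term 28 (11.5%) and library totals 27 (9.53%). With library totals, which put the median of all genes at 0.04, 64.2% of called genes were higher against 53% in the full comparison. Without mice 1184, 1186 and 1188, 25 members were lower beside 12.5% of all genes (median -0.28). Without 1235 and 1243, left out after seeing the data, 28 were lower beside 12.2% (median -0.32). With the score of other liver cells, 6.73% of all genes were lower. No paired analysis was possible because library numbers are not shared between ages. Cryab, at 12.5 to 51 counts per library, Bag2, at 22.5 to 84.5, and Hspa2, at 28 to 107.5, rest on few counts. So does Hspa1a in most mice, at 11 to 366 counts per library.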
